A study of Ambystoma mexicanum with 12 samples.

Results

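RIPPLY3 and the T-box genes are described here across 12 libraries of axolotl forelimb blastema mesenchyme. The genes were taken by name: of 36917 genes in the count table, 16 carry a symbol made of RIPPLY or TBX and a number, 2 of them RIPPLY genes and 14 of them TBX genes that share 12 symbols. RIPPLY3 was itself singled out, being chosen on its level in the Am580 libraries against the DMSO libraries, so its levels and fold change are given as a description, with no test. The TBX genes were taken by symbol alone.

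The study asked which genes respond when a regenerating limb is reset to a more proximal identity. Am580 is an agonist that selectively activates retinoic acid receptor α, and DMSO is the solvent it was dissolved in. Albino axolotls were amputated through the middle of the lower arm (mid-zeugopod), placed 24 h later in 25 nM Am580 or in an equal volume of DMSO for 5 days, and sampled 24 h after that. The sequenced tissue was the right forelimb blastema with its epidermis removed, 1 blastema per library, with 6 Am580 libraries and 6 DMSO libraries. The Am580 limbs were those of the animals whose left limbs were later the most duplicated, while the DMSO limbs came from animals with none, so the choice of animals cannot be told apart from the treatment. Treatment reached the whole animal, and the tissue holds several cell types.

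T-box proteins are transcription factors that bind DNA through a shared domain, the T-box, and many of them pattern the embryo. TBX5 marks the forelimb and TBX4 the hindlimb of vertebrate embryos, TBX2 and TBX3 are repressors that in chick and mouse are expressed along the limb margins, and TBX15 and TBX18 are expressed in mouse limb mesenchyme. Ripply proteins do not bind DNA. They attach to T-box proteins and bring in corepressors of the Groucho/TLE family, which turns an activating T-box factor into a repressing one. In the mouse, Ripply3 is known from the pharyngeal region, where it acts on Tbx1.

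Libraries held 34279044 to 43793138 counted read pairs with Am580 and 27226012 to 40794002 with DMSO. Levels are depth-scaled counts (CPM) after TMM normalization, and 3 counts, taken as the limit that a count of 0 allows, amount to 0.0637 to 0.0915 CPM in the Am580 libraries and 0.0754 to 0.111 CPM in the DMSO libraries. The test covered the 25879 genes that reached 10 counts in 6 or more libraries, and a gene was called when the Benjamini-Hochberg adjusted p of edgeR's quasi-likelihood test fell under 0.05. By that rule 14.1% of all genes tested passed, of which 6.93% of the total were higher and 7.21% lower in the Am580 libraries, and in 8.60% every Am580 library lay above or below all DMSO libraries. The labelled tissue was checked against connective tissue markers, of which 5 of 7 symbols were found and all 5 genes were tested. Their summed level ranged from 246 to 355 CPM with Am580 and from 282 to 460 CPM with DMSO, with 1 gene lower, MSX1. Epidermal markers summed to 372 to 486 CPM with Am580 and 509 to 709 CPM with DMSO, with 1 of 4 genes tested lower (KRT18, adjusted p = 0.0138, edgeR). KRT18 made up most of these sums, at 364 to 472 CPM with Am580 and 455 to 706 CPM with DMSO. The sums thus mainly follow KRT18, and whether KRT18 marks epidermis in this tissue was not tested. EPCAM, an epithelial adhesion molecule, was at 35.4 CPM in DMSO replicate 1, against 1.66 to 7.54 CPM in the other DMSO libraries. TP63 (MSTRG.22689) leaned the other way from KRT18, with 1.74 to 5.96 CPM with Am580 and 0.352 to 7.01 CPM with DMSO, highest in DMSO replicate 1. Its log2 fold change of 1.25 was not called (adjusted p = 0.315, edgeR), nor were those of EPCAM (-1.04) and CDH1 (-0.90). CDH1 too was highest in DMSO replicate 1, at 11.8 CPM. The signs of EPCAM and CDH1 were not stable. With a library left out, their log2 fold changes reached 0.304 and 0.838, and both were called in 0 of 12 such fits. In the DMSO libraries other than replicate 1, TP63 was at 0.352 to 0.788 CPM, below every Am580 library. TP63 was called in 1 of 12 fits with a library left out, where its log2 fold change reached 2.83. The part of these differences in the results on T-box genes was not tested. In bulk RNA, fewer cells of a type and less RNA per cell cannot be told apart.

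RIPPLY3 (gene MSTRG.4632) was well expressed with Am580 and low, but detected in every library, with DMSO. It had 18.9 CPM in the lowest, 24.9 in the median and 31.6 in the highest Am580 library, against 0.389, 0.635 and 1.48 CPM in the lowest, median and highest DMSO library. In reads, this was 798, 960, 1003, 1211, 1019 and 776 counts in Am580 replicates 1 to 6 and 12, 20, 50, 26, 23 and 20 counts in DMSO replicates 1 to 6. The groups stood far apart, and the lowest Am580 library held more than 10 times the counts of the highest DMSO library. Means were 24.9 ± 4.45 CPM with Am580 and 0.747 ± 0.377 CPM in the DMSO libraries (SD, n = 6 each), a log2 fold change of 5.05 (SE 0.27), or 33.1-fold. Of the 25879 genes tested, 13 had a larger log2 fold change. It stayed between 4.94 and 5.37 on the log2 scale whichever alternative was run and whichever library was dropped. The libraries of 1 treatment differed less with Am580, with a coefficient of variation of 17.9% and a highest level 1.67 times the lowest, than with DMSO, with 50.5% and 3.80 times, where a library held 12 to 50 counts of it.

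**Figure D1:**
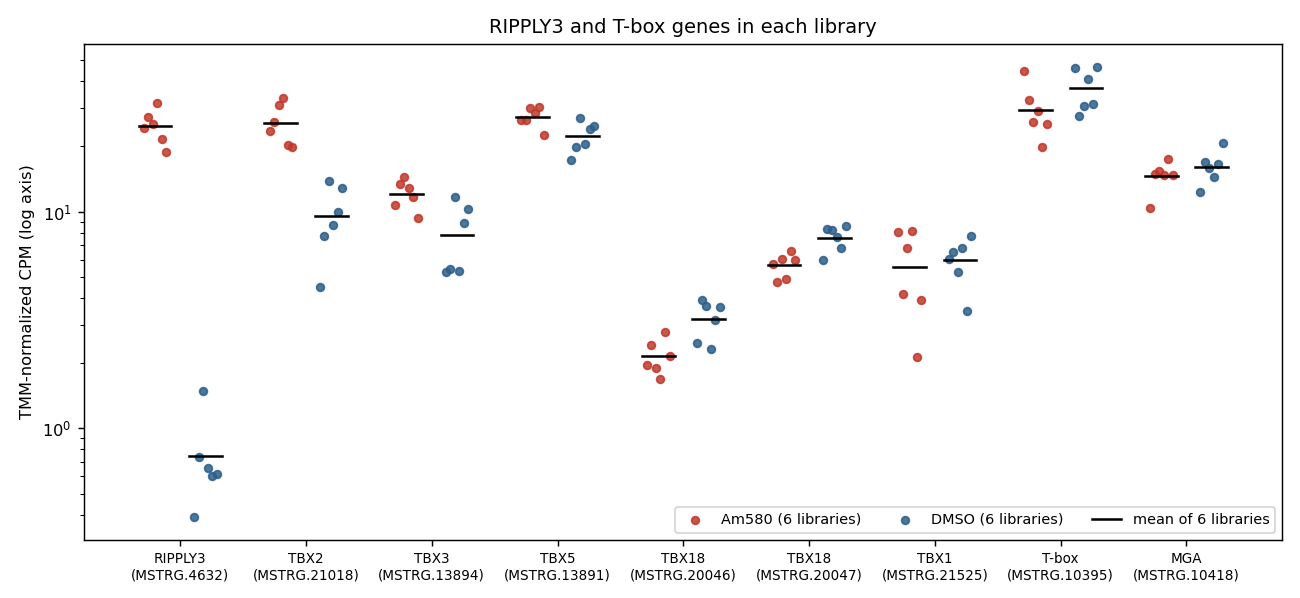
TMM-normalized CPM (log axis) of the 9 RIPPLY, TBX and other T-box genes described at length, 1 point per library, with Am580 left of DMSO for each gene and a bar at the mean of 6 libraries. RIPPLY3 and TBX2 are the 2 genes whose Am580 and DMSO points do not overlap, with RIPPLY3 at 18.9 to 31.6 CPM with Am580 and 0.389 to 1.48 CPM with DMSO.

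RIPPLY3 lies on scaffold AMEXG_0030000919 of the genome build AmexG_v3.0.0, from 2017881 to 2038418 on the minus strand, as 1 transcript with 4 exons that cover 1879 bases. It is nested within the span of HLCS, the gene of an enzyme that attaches biotin to other proteins, which runs on the opposite strand from 1896576 to 3080106. The 2 genes share 0 exon bases, and the counting used strand. HLCS had 12.7, 18.1 and 22.7 CPM in the lowest, median and highest Am580 library, against 10.01, 11.6 and 14.2 CPM in DMSO libraries. HLCS rose by 0.61 on the log2 scale (SE 0.13, adjusted p = 0.00725, edgeR), with overlapping ranges, and stayed called with any 1 library left out. The change of HLCS was thus much smaller than that of RIPPLY3. PIGP, a gene of glycolipid anchor synthesis to the left of HLCS, had a log2 fold change of 0.10 (adjusted p = 0.842, edgeR) and TTC3, a ubiquitin ligase gene farther left, 0.39 (adjusted p = 0.396, edgeR). The remaining gene of the scaffold, LOC108696546, had no counts. The other RIPPLY gene, RIPPLY1, which in vertebrate embryos acts in somite formation, had 3 counts over the 6 Am580 libraries and 0 over the 6 DMSO libraries.

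Of the 14 TBX genes, 6 were tested: 1 was called higher with Am580, 2 were called lower and 3 were not called, and in 1 the treatments did not overlap. With so few genes these counts are a description, to be set against the 6.93% of all genes called higher, the 7.21% called lower and the 8.60% without overlap. The 8 other TBX genes were under the filter. The family was put together with earlier results of these libraries known.

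TBX2 (MSTRG.21018, AMEXG_0030008002, 1246008 to 1276805, plus strand) was the TBX gene called higher. It had 19.9, 24.7 and 33.6 CPM in the lowest, median and highest Am580 library, against 4.48, 9.28 and 13.9 CPM in the DMSO libraries. Every Am580 library was above every DMSO library. Means were 25.7 ± 5.64 CPM with Am580 and 9.59 ± 3.45 CPM with DMSO (SD, n = 6 each), so TBX2 rose by 1.42 on the log2 scale (SE 0.24, adjusted p = 0.00129, edgeR), or 2.68-fold. It was called in 12 of 12 fits with a library left out, with a log2 fold change of 1.296 to 1.56, and its adjusted p ranged from 1.53e-07 to 0.00549 over all alternatives.

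TBX3 (MSTRG.13894, AMEXG_0030003710, 3609761 to 3630608, minus strand), the closest relative of TBX2 in vertebrates, leaned the same way without passing the test. It had 9.32, 12.2 and 14.4 CPM in the lowest, median and highest Am580 library, against 5.29, 7.15 and 11.7 CPM in the DMSO libraries. In 3 of the 6 Am580 libraries TBX3 was above all DMSO libraries, and in 4 of the 6 DMSO libraries it was below all Am580 libraries. The log2 fold change of TBX3 was 0.63 (SE 0.21, adjusted p = 0.0734, edgeR). It was called by DESeq2 (adjusted p = 0.0313), by limma-voom (adjusted p = 0.0446) and with edgeR once DMSO replicate 3, its highest DMSO library, was left out (adjusted p = 0.0245), within a range of 0.0245 to 0.143 over all alternatives.

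TBX5 (MSTRG.13891), the forelimb gene, lies on the scaffold of TBX3, 2849437 bases away with 1 gene between, from 286347 to 760323 on the minus strand. It had 22.7, 27.4 and 30.4 CPM in the lowest, median and highest Am580 library, against 17.2, 22.3 and 26.9 CPM in the DMSO libraries. Both treatments expressed TBX5 clearly, and 3 Am580 libraries were above all DMSO libraries. The difference of 0.30 on the log2 scale (SE 0.11, adjusted p = 0.106, edgeR) was not called, nor was it under any alternative (adjusted p 0.0554 to 0.196). TBX5 shares 1768 exon bases with the gene MSTRG.13892 on the opposite strand, which had 15.7 ± 6.002 CPM with Am580 and 15.1 ± 3.50 CPM with DMSO (SD, n = 6 each).

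TBX4, the hindlimb gene, was nearly silent. It lies on the scaffold of TBX2, 1015119 bases to its right with no gene between, from 2291925 to 2842027 on the plus strand. Am580 replicates 1 to 6 held 2, 1, 3, 0, 4 and 0 counts of TBX4, and DMSO replicates 1 to 6 held 1, 5, 12, 13, 5 and 11. The totals were 10 counts with Am580 and 47 counts with DMSO, and DMSO replicate 1 fell within the range of the Am580 libraries. TBX4 was under the filter, and in the fit with no filter its log2 fold change of -2.35 (SE 0.71) did not pass (adjusted p = 0.0522, edgeR). TBX2 and TBX4, neighbours on 1 scaffold, thus had fitted changes of opposite sign, of which that of TBX2 was called.

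**Figure D2:**
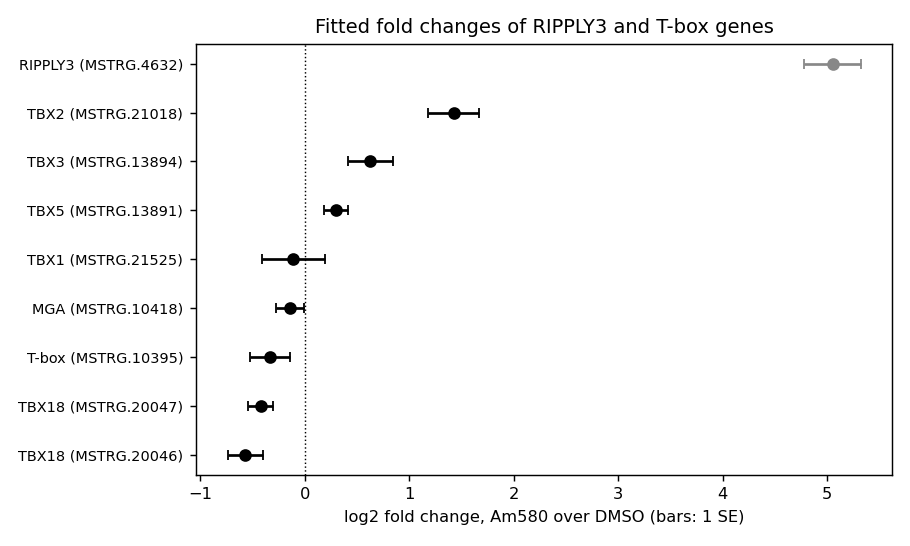
Fitted log2 fold changes, Am580 over DMSO, of the 9 genes described at length, all of which passed the count filter, with bars of 1 SE and a dotted line at 0. RIPPLY3 (grey, given with no test) is at 5.05 and TBX2 at 1.42, while the other genes lie between -0.57 and 0.63.

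TBX18 is carried by 2 genes of the assembly, 22622 bases apart on the same strand of scaffold AMEXG_0030007032 with no gene between, whereas RefSeq, on another genome build, holds 1 TBX18 gene. Both had lower levels with Am580. The left gene (MSTRG.20046, 1239010 to 1253014) had 1.70, 2.06 and 2.78 CPM in the lowest, median and highest Am580 library, against 2.34, 3.40 and 3.91 CPM in the DMSO libraries. The right gene (MSTRG.20047, 1275637 to 1327682) had 4.75, 5.86 and 6.58 CPM in the lowest, median and highest Am580 library, against 6.002, 7.92 and 8.54 CPM in the DMSO libraries. In each of them 4 of the 6 Am580 libraries were below every DMSO library.

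The left TBX18 gene fell by 0.57 on the log2 scale (SE 0.17, adjusted p = 0.0432, edgeR) and the right one fell by 0.42 (SE 0.12, adjusted p = 0.0299, edgeR). Neither call was firm. The left gene was called in 3 of 12 fits with a library left out and the right gene in 6 of 12, with adjusted p of 0.0156 to 0.104 and 0.00561 to 0.0947 over all alternatives, although both were lower with Am580 in each alternative run. With scaling by library size only, neither was called (adjusted p = 0.0979 for the left and 0.0947 for the right gene, edgeR). Since the 2 genes may be parts of 1, their calls are not independent of each other.

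TBX1 (MSTRG.21525, AMEXG_0030008598, 374406 to 427277, plus strand), the gene on which Ripply3 acts in the mouse pharynx and which is also expressed in muscle precursors of the head, varied more between libraries than between treatments. It had 2.14, 5.49 and 8.15 CPM in the lowest, median and highest Am580 library, against 3.49, 6.28 and 7.71 CPM in the DMSO libraries. The Am580 libraries enclosed the whole range of the DMSO libraries. The log2 fold change of TBX1 was -0.11 (SE 0.30, adjusted p = 0.868, edgeR) and took the other sign, 0.06, without Am580 replicate 5, its lowest library. Summed skeletal muscle markers also varied widely within treatments, from 4390 to 15132 CPM with Am580 and from 6308 to 15587 CPM with DMSO. CKM and DES made up most of these sums and were not called. Of the 5 muscle marker genes tested, 1 was called higher, MYOG (adjusted p = 0.0489, edgeR), against 6.93% of all genes tested. MYOG had 29.7 ± 13.8 CPM with Am580 and 12.1 ± 6.11 CPM with DMSO (SD, n = 6 each), with overlapping ranges. It was called in only 2 of 12 fits with a library left out.

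TBX21, which in mammals directs T helper and natural killer cells, was low in both treatments. It had 8, 10, 7, 10, 24 and 16 counts in Am580 replicates 1 to 6, and 15, 6, 2, 3, 6 and 6 counts in DMSO replicates 1 to 6. In counts, the DMSO libraries other than replicate 1 lay below all Am580 libraries, but scaled for depth the treatments overlapped further, with 0.311 ± 0.119 CPM in the Am580 libraries and 0.198 ± 0.155 CPM in the DMSO libraries (SD, n = 6 each). TBX21 was under the filter, and without a filter its log2 fold change was 0.67 (SE 0.47, adjusted p = 0.454, edgeR). Markers of T and NK cells summed to 18.6 to 30.3 CPM with Am580 and 6.70 to 18.1 CPM with DMSO. Of the 3 genes tested, 2 were higher, CD247 and LCK, against 6.93% of all genes tested, and ZAP70 was not called (adjusted p = 0.387, edgeR). CD247 made up most of these sums, at 17.2 to 28.2 CPM with Am580 and 5.72 to 17.0 CPM with DMSO. GZMA, a granule protease of killer cells, had at most 3 counts in a library, and the symbols CD3E, CD3G and PRF1 were not found. The part of these cells in the TBX21 counts was not tested.

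The other TBX genes had at most 3 counts in every library, as did RIPPLY1, which makes 7 genes in all. TBX20, a heart gene, had 8 counts over the 6 Am580 libraries and 3 over the 6 DMSO libraries. TBX6, a gene of the presomitic mesoderm, had 1 count with Am580 and 0 with DMSO. TBX19, a pituitary gene, had 2 counts with Am580 and 4 with DMSO. The 2 genes named TBX22, a palate gene in mammals, lie 2231 bases apart and had 9 and 3 counts with Am580, against 5 and 6 counts with DMSO. The gene named TBX15 had 4 counts with Am580 and 4 with DMSO, and whether it is the TBX15 gene is taken up below. Differences among these genes were not detectable at this depth.

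**Figure D3:**
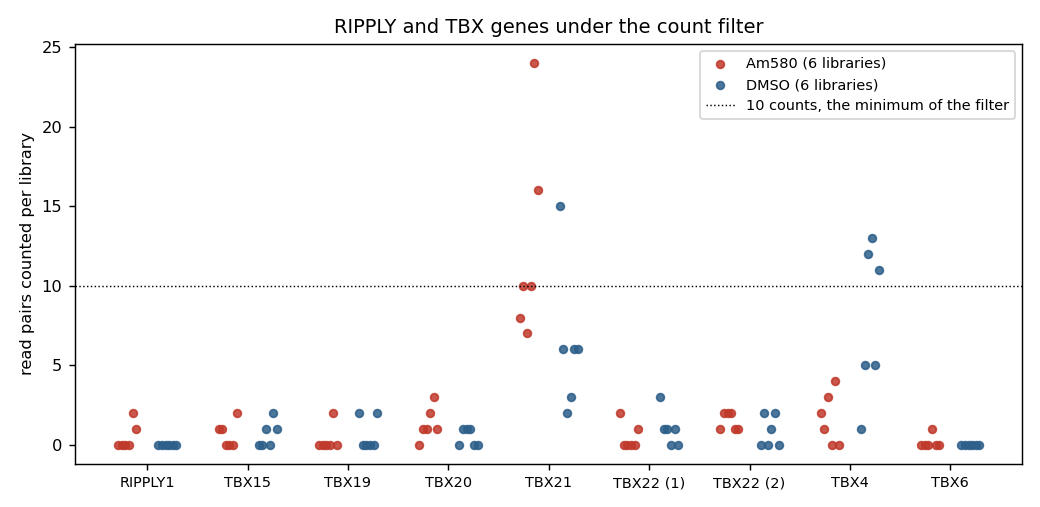
Read pairs counted per library for the 9 RIPPLY and TBX genes under the count filter, 1 point per library, with Am580 left of DMSO and a dotted line at 10 counts. TBX4 reaches 4 counts with Am580 and 13 with DMSO, TBX21 reaches 24 with Am580 and 15 with DMSO, and the others stay at 3 or fewer.

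The gene named TBX15 is short, and 471 of its 517 exon bases lie opposite to exons of the gene MSTRG.10395, which carries only the name T-box (AMEXG_0030002469, 317146 to 636008, minus strand). Which of these genes is TBX15 could not be settled without sequence. The few counts of the gene named TBX15 thus do not show that TBX15 was silent. The T-box gene MSTRG.10395 was well expressed. It had 19.8, 27.5 and 44.8 CPM in the lowest, median and highest Am580 library, against 27.7, 36.1 and 46.7 CPM in the DMSO libraries. In 3 of the 6 Am580 libraries it was below all DMSO libraries, and its difference of -0.33 on the log2 scale (SE 0.19, adjusted p = 0.323, edgeR) was not called.

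MGA, a large protein with a T-box and a second DNA-binding domain, had 14.6 ± 2.36 CPM with Am580 and 16.1 ± 2.79 CPM in the DMSO libraries (SD, n = 6 each), or -0.14 on the log2 scale (adjusted p = 0.594, edgeR). The gene named brachyury, the founding T-box gene, had 4 counts with Am580 and 9 with DMSO, and TBR1, a gene of the forebrain, had 0 in both. A further gene named only T-box, 150629 bases from TBX6, had 17 counts over the Am580 libraries, with at most 4 in a library, and 0 over the DMSO libraries. It was under the filter, and the fit with no filter called it higher (adjusted p = 0.0153, edgeR), the one gene with a TBX or other T-box name under the filter that this fit called. Of all 34576 genes, the fit with no filter called 3658, of which 1826 were higher. In all, 7 genes carry a T-box name without a number. The remaining 2 are named only T, which is a symbol of brachyury but may also be a shortened description, so whether either is brachyury is not settled here. MSTRG.2821 had 4.50 ± 1.27 CPM with Am580 and 2.40 ± 1.15 CPM with DMSO (SD, n = 6 each), with overlapping ranges and a log2 fold change of 0.90 that was not called (SE 0.34, adjusted p = 0.105, edgeR, and 0.0372 to 0.199 over all alternatives). MSTRG.2824 had 0.585 ± 0.338 CPM in Am580 libraries and 0.370 ± 0.275 CPM in DMSO libraries (SD, n = 6 each) and was not called (adjusted p = 0.512, edgeR).

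Levels of different genes were compared per kilobase of exon, as TMM-scaled CPM divided by exon length (RPKM). Exon length is that of all assembled exons of a gene, 1879 bases for RIPPLY3 and 8789 for TBX5. The order therefore depends on the assembly. In mean CPM with Am580, MSTRG.10395 (29.6), TBX5 (27.4) and TBX2 (25.7) were above RIPPLY3 (24.9), with overlapping ranges. With Am580, RIPPLY3 was the highest of the 9 genes at 13.2 ± 2.37 RPKM (SD, n = 6), clear of the T-box gene MSTRG.10395 at 6.30 ± 1.83 RPKM. TBX2 came next at 5.82 ± 1.28 RPKM, overlapping with that T-box gene, and stood clear of TBX5 at 3.12 ± 0.33 RPKM. From TBX5 downward each gene overlapped with the next, through the right TBX18 gene at 2.31 RPKM, TBX3 at 2.02, TBX1 at 1.70, the left TBX18 gene at 1.58 and MGA at 1.24 RPKM.

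With DMSO the order was different at both ends. Of the 9 genes, the T-box gene MSTRG.10395 was highest at 7.93 ± 1.79 RPKM, clear of the others. RIPPLY3 was the lowest of them at 0.398 ± 0.201 RPKM, clear of TBX3 at 1.31 ± 0.474 RPKM (SD, n = 6). Between these ends, the right TBX18 gene (3.09 RPKM), TBX5 (2.53), the left TBX18 gene (2.35), TBX2 (2.17), TBX1 (1.84), MGA (1.37) and TBX3 each overlapped with the next. The genes named only T were not ranked, and with DMSO both overlapped with RIPPLY3. Their means were 0.980 RPKM for MSTRG.2821 and 0.353 RPKM for MSTRG.2824, the latter below that of RIPPLY3. Within a library, the RPKM of RIPPLY3 was 1.92 to 2.50 times that of TBX2 with Am580 (median 2.34) and 0.113 to 0.251 times with DMSO (median 0.191). The distance between these ratios follows from the levels on which RIPPLY3 was chosen.

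RIPPLY3 and TBX2 had their extremes in the same libraries: both were lowest in Am580 replicate 6 and highest in Am580 replicate 4, and both were lowest in DMSO replicate 1 and highest in DMSO replicate 3. TBX3 and TBX5 shared 3 of these extremes, all but the highest Am580 library. The DMSO extremes were not particular to these genes. Of the connective tissue markers, PRRX1 (171 CPM in DMSO replicate 1 and 314 CPM in DMSO replicate 3), PDGFRA and MSX1 had both. TWIST1 and LUM shared only the highest DMSO library. The low in Am580 replicate 6 was not particular to RIPPLY3 and the T-box genes either. RARB (25.5 CPM), CP26A (73.6 CPM) and DHRS3 (240 CPM), the retinoid response genes described below, were also lowest there. Their highest Am580 library was not replicate 4. Of the connective tissue markers, TWIST1 alone was lowest in Am580 replicate 6. Whether RIPPLY3 followed other genes from library to library was examined within the 6 Am580 libraries on log2 CPM, for 11 genes, namely the 6 tested TBX genes, the T-box gene MSTRG.10395, MGA and 3 retinoid response genes. TBX2 had the highest Pearson's r with RIPPLY3, 0.88 (exact two-sided permutation p = 0.0208, adjusted p = 0.229 over 11 relations, n = 6), and a Spearman's rho of 0.94 (exact permutation p = 0.0167, adjusted p = 0.183). Its r was 0.71 without Am580 replicates 4 and 6, the libraries farthest from the RIPPLY3 median. RARB, the retinoic acid receptor β gene and a direct retinoid target, had an r of 0.82 (exact permutation p = 0.0417, adjusted p = 0.229, n = 6), a rho of 0.89 (exact permutation p = 0.0333, adjusted p = 0.183) and an r of 0.78 without these 2 libraries. The right TBX18 gene had the lowest r, -0.76 (exact permutation p = 0.0722, adjusted p = 0.251, n = 6), with a rho of -0.66 (exact permutation p = 0.175, adjusted p = 0.321) and an r of -0.88 without the 2 libraries. Over all 6 Am580 libraries, CP26A had an r of 0.71 and DHRS3 an r of 0.55. Without the 2 libraries these were 0.95 and 0.82, above the r of TBX2, as was that of RARB. The first place of TBX2 by r thus depends on those 2 libraries.

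No relation passed adjustment, and the smallest p that 6 libraries allow for rho is 0.00278. The relations within the 6 DMSO libraries were added after those with Am580 had been seen. There TBX2 had an r of 0.75 with RIPPLY3 (exact permutation p = 0.119, adjusted p = 0.436 over 10 relations, n = 6) and a rho of 0.49 (exact permutation p = 0.356, adjusted p = 0.593). The r with DMSO was -0.77 without replicates 1 and 3, so it rests on those 2 libraries. The other DMSO libraries held 20 to 26 counts of RIPPLY3, too close together to read a relation among them. Of the 10 genes examined in both treatments, 4 had an r of the same sign in both. RARB, with 2 to 6 counts in each DMSO library, was too near the limit of 3 counts there to read its sign.

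**Figure D4:**
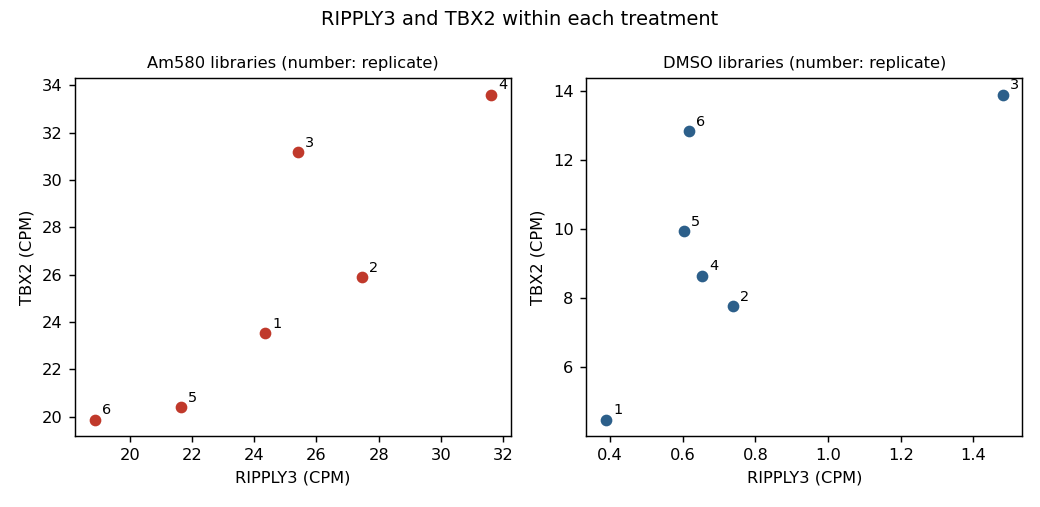
TBX2 against RIPPLY3 in TMM-normalized CPM for the 6 Am580 libraries (left) and the 6 DMSO libraries (right, own axes), 1 point per library with its replicate number. With Am580 replicate 6 is lowest and replicate 4 highest in both genes, and with DMSO replicates 1 and 3 hold the extremes. The 4 other DMSO libraries (r = -0.77 on log2 CPM) held 20 to 26 counts of RIPPLY3, too close together to read a relation.

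Of the corepressors that Ripply proteins recruit and the general corepressors, the genes found were present in both treatments, although TLE2 was under the filter. TLE2 had 21 counts over the Am580 libraries and 51 over the DMSO libraries. The symbols TLE4, TLE6 and HDAC2 were among those not found. Of 12 symbols 8 were found, as 10 genes, and of the 9 tested 1 was higher, 0 were lower and 8 were not called, with a median log2 fold change of 0.04, against 6.93% called higher, 7.21% called lower and a median of 0.00 over all 25879 genes tested. The gene called was TLE3, a Groucho family corepressor. TLE3 had 63.7 ± 4.02 CPM with Am580 and 50.6 ± 4.29 CPM with DMSO (SD, n = 6 each), with no overlap, and rose by 0.33 on the log2 scale (SE 0.07, adjusted p = 0.00791, edgeR). HDAC1, a histone deacetylase, had 149 ± 17.3 CPM in Am580 libraries and 141 ± 6.53 CPM in DMSO libraries and was not called.

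Of the proteins known in other vertebrates to act together with T-box factors, all 9 symbols were found as 10 genes, of which 6 were tested, with 1 higher and 0 lower and a median log2 fold change of 0.18, against 6.93%, 7.21% and 0.00 over all genes tested. WWTR1 (TAZ), a coactivator that binds TBX5 in mammals, had 35.2 ± 4.16 CPM with Am580 and 24.6 ± 2.62 CPM with DMSO (SD, n = 6 each). WWTR1 rose by 0.52 on the log2 scale (SE 0.10, adjusted p = 0.00246, edgeR), and the treatments did not overlap. The cardiac partners NKX2-5 and GATA4 had 0 counts in all 12 libraries. GATA6, a zinc finger factor of heart and gut, had 68 counts with Am580 and 10 with DMSO, and GATA5, its relative, had 21 with Am580 and 2 with DMSO. Both were under the filter, and the fit with no filter called both higher (adjusted p = 0.0126 for GATA6 and 0.0392 for GATA5, edgeR), as it did 1826 of 34576 genes.

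Of genes known as T-box targets in vertebrate embryos, 8 of 16 symbols were found and all 8 genes were tested, with 0 higher and 2 lower and a median log2 fold change of -0.34, against 6.93%, 7.21% and 0.00 over all genes tested. FGF8, a growth factor of limb outgrowth, had 4 counts over the Am580 libraries and 123 over the DMSO libraries, with 0 or 1 count in each Am580 library, under the limit of 3 counts, and 12 to 47 counts in each DMSO library. FGF8 was also named by the study from these libraries, so it is not independent evidence for its list. LEF1, a nuclear partner of Wnt signaling, had 24.6 ± 4.90 CPM with Am580 and 33.7 ± 5.07 CPM with DMSO (SD, n = 6 each). LEF1 fell by 0.46 on the log2 scale (SE 0.14, adjusted p = 0.0474, edgeR), but was called in only 2 of 12 fits with a library left out. SALL1, a limb zinc finger gene, had a log2 fold change of -0.71 that was not called (SE 0.23, adjusted p = 0.0559, edgeR).

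The 3 retinoid response genes were chosen to place RIPPLY3, with earlier results of these libraries known. All 3 were higher, which is therefore a description, and the study named RARB and CP26A from these libraries. RARB had 36.9 ± 10.2 CPM with Am580 and 0.116 ± 0.0732 CPM with DMSO (SD, n = 6 each). CP26A, a retinoic acid degrading enzyme, had 73.6 to 218 CPM with Am580 and 0 counts with DMSO. DHRS3, a retinaldehyde reductase, had 293 ± 39.7 CPM in the Am580 libraries and 18.2 ± 1.72 CPM in the DMSO libraries (SD, n = 6 each), a difference of 4.01 on the log2 scale.

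The 5 genes whose log2 CPM profile was nearest to that of RIPPLY3 over the 12 libraries, by root mean square difference after centring, were led by DHRS3, at a difference of 0.64 log2 units. The 4 others have no gene name in the files: MSTRG.15509 (0.69), MSTRG.6143 (0.75), MSTRG.15581 (0.76) and MSTRG.2544 (0.78). Like RIPPLY3, all 5 were far higher in every Am580 library, so this likeness reflects mainly the difference between treatments. MSTRG.15509 had 9.76 to 17.98 CPM with Am580 and 0.131 to 0.812 CPM with DMSO, which was below the range of RIPPLY3 with Am580 and overlapped with it with DMSO.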

How the data were processed

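RNA was sequenced from 12 blastemas as poly-A selected, stranded paired-end libraries. Per the study's methods and the submitters' processing notes, the authors trimmed with Trimmomatic 0.36, used HISAT2 2.1.0 for alignment to AmexG_v3.0.0, assembled and merged transcripts with StringTie 1.3.4d and counted read pairs per gene with featureCounts (Subread 1.6.2), reverse stranded. The deposited counts are whole numbers without normalization. Reads shared between near-identical genes can be split or lost in such counts. The deposited assembly gave names and 1-based coordinates. The deposited abundance table was not used. RefSeq's table, of the assembly UKY_AmexF1_1, served only to look up gene symbols.

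The analysis used R 4.3.3 and edgeR 4.0.16 (TMM, at least 10 counts in 6 or more libraries, the legacy quasi-likelihood F test, all 12 libraries, no covariates, prior count 0.125), limma 3.58.1 and DESeq2 1.42.0, and in Python 3.11.15 with pandas 2.3.3, numpy 2.4.6 and matplotlib 3.10.9. Benjamini-Hochberg adjustment ran over all 25879 genes tested. Standard errors were derived from the F statistic. Log2 CPM for correlations used a prior count of 2, and their p-values come from all 720 pairings. The pipeline was tested on simulated data. Limits and floors cover counting error only.

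Named genes are those matching the symbol rule, other T-box names, lists of corepressors, partners, targets, retinoid response and cell type markers, the neighbours of RIPPLY3 and the 5 genes nearest in profile. These genes and lists were chosen with earlier results of these data known. Alternatives were other normalizations (DESeq2 size factors, library size only, upper-quartile), filters (none, 10 counts in every library), tests (DESeq2, limma-voom, edgeR's current method), a prior count of 2, the replicate number as a block and each library left out. No 2 libraries held the same counts.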

Additional observations from a re-analysis of the deposited data

Results flagged for a closer look

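Among 24 groups of 6 libraries (12 genes in each treatment), 1 held a library far from the others by Dixon's test, about what chance gives, since it picks out about 1 group in 20. MGA had 10.3 CPM in Am580 replicate 1, against 14.7 to 17.6 CPM in the 5 other Am580 libraries. On the log2 scale this was a gap of 0.665 of the whole range, and in CPM the gap was a smaller part of it.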

How the results depend on the processing

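The RIPPLY3 fold change moved by less than its spread between libraries under every alternative run. The count of TBX genes called higher, 1, was 2 with DESeq2 and 2 with limma-voom, each adding TBX3, and 1 to 2 with a library left out. The count called lower, 2, was 0 with library size only, 1 with upper-quartile scaling, 1 with no filter, 1 with limma-voom and 0 to 2 with a library left out. With the replicate block it was 1, the left TBX18 gene, while the right one had an adjusted p of 0.0744, and 3440 genes were called in all. The numbers do not pair the samples: same-numbered libraries deviated together with correlations of -0.17 to 0.23, and for 1 of the 6 numbers the best match was its own. The cause of these moves was not tested. The median log2 fold change of all genes was 0.00 with TMM, 0.05 with library size only and 0.03 with upper-quartile scaling. With a library left out, the log2 fold change of TBX1 ranged from -0.25 to 0.057, turning without Am580 replicate 5, and that of PIGP from -0.14 to 0.22, turning without Am580 replicate 1. The sign also turned for the r of RIPPLY3 with TBX5 within Am580 (-0.60 without replicates 4 and 6). In the 6 DMSO libraries, chosen after seeing the data, the r with RIPPLY3 took the other sign for the left TBX18 gene (0.56), the right TBX18 gene (0.66), TBX1 (-0.11), the T-box gene MSTRG.10395 (-0.60), MGA (0.31) and RARB (-0.45). RARB held only 2 to 6 counts in each DMSO library, so its sign there is not read. Depth limits TBX4, TBX21 and the genes with at most 3 counts per library.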
